A study of Mus musculus with 2 samples.

Results

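The promoter side of the mouse rDNA repeat was examined for DNA ends, as positions 42001 to 45306 at the right end of the repeat sequence. By its description this stretch holds the spacer promoter, the enhancer repeats, the upstream terminator and the gene promoter. The stretch was chosen by position alone and was cut into bins of 20 bp on each strand, which gave 332 of the 4532 bins of the whole repeat. In earlier results of the same files S phase had already shown a lower plus-strand share toward this end of the repeat, so that direction is described here and is not independent evidence.

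END-seq, in which adapters are ligated to DNA ends inside agarose plugs, was applied to CD43-negative B cells from spleens of mice aged 4 to 8 weeks. The group in S phase was 1 library of cells that had received 25 ng/mL of IL-4 and 1 µg/mL of anti-CD40 in a culture of 24 to 28 h. The group in G1 phase was 1 library of quiescent cells cultured without IL-4 and anti-CD40, for the same time by the labels' protocol. Both library titles carry the same prefix, ATR+c, which the labels do not explain, and no source used here gives the strain, the genotype or the number of mice. DNA ends measure no expression, so the labelled cell type was not checked against its markers. Of 21997695 reads in the S-phase library 44195 lay on rDNA, and of 28933109 in the G1 library 59058 did. With 1 library per group there is no replicate check, and every ratio below is S phase over G1 phase and compares these libraries only. Pairs of values joined by "and" or "against" give S phase first and G1 phase second unless stated. Activation and cell cycle phase changed together between the groups and cannot be told apart. Values are given as reads or as RPM (reads per 1000000 reads of the library). The 95% intervals cover counting error only and are too narrow where reads are stacked on single positions. The series asks where replication leaves single-ended breaks in primary cells without added damage.

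Ribosomal RNA genes lie in long tandem arrays, and RNA polymerase I transcribes each unit from a gene promoter that follows directly on the spacer of the unit before it. In the mouse the spacer promoter starts short noncoding transcripts that run toward the gene, the enhancer repeats behind it bind the architectural factor UBF, and the upstream terminator next to the gene promoter binds the termination factor TTF-I. The strand of an END-seq read tells on which side of the end the DNA continues, to the right for plus and to the left for minus. Around a double-ended break, minus-strand reads therefore lie on the left and plus-strand reads on the right, while a single-ended break leaves reads on 1 strand. No annotation or sequence of the repeat was used here, so the elements named in the description were not placed within the stretch and no sequence is shown. Reads from all copies of the repeat fall on the same sequence, and a change in a few copies and a change in many cannot be told apart.

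On the promoter side the strands differed in opposite directions. The plus strand held 1865 and 3528 reads. Scaled to the libraries this was 25.6 against 36.9 RPM per kb, a ratio of 0.695 (0.657 to 0.736). The minus strand held 1937 and 2067 reads, or 26.6 against 21.6 RPM per kb, a ratio of 1.23 (1.16 to 1.31). With the strands added up the difference was smaller, at 3802 and 5595 reads and a ratio of 0.894 (0.857 to 0.932). The plus-strand share was accordingly 49.1% (47.5 to 50.7) against 63.1% (61.8 to 64.3), a difference of −14.0 points (−16.0 to −12.0). The G1 library thus leaned to the plus strand, and the S-phase library was close to even.

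Among stretches of the same length the promoter side had the lowest plus-strand ratio, the highest minus-strand ratio and the largest shift toward the minus strand. The rest of the repeat was cut, from the promoter side leftward, into 12 windows of 3306 bp, which reached from 2329 to 42000. Their plus-strand ratios ran from 0.777 to 2.59 with a median of 0.900, and all 12 lay above that of the promoter side. Their minus-strand ratios ran from 0.795 to 1.09 with a median of 0.880, and all 12 lay below. The differences in plus-strand share had a median of 1.02 points and lay between −6.64 and 21.6, so the strands diverged by more points, in the other direction, in the window at 12247 to 15552. The lowest difference belonged to the neighbouring window, 38695 to 42000, where the plus strand stood at 0.777 (0.730 to 0.827) and the minus strand at 1.02 (0.949 to 1.10). The shift toward the minus strand was therefore present next to the promoter side as well, with smaller values. With each covered position counted once, 2 of the 12 windows had a lower plus-strand ratio than the promoter side, while its minus-strand ratio was still above, and its share difference below, those of all 12.

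**Figure D1:**
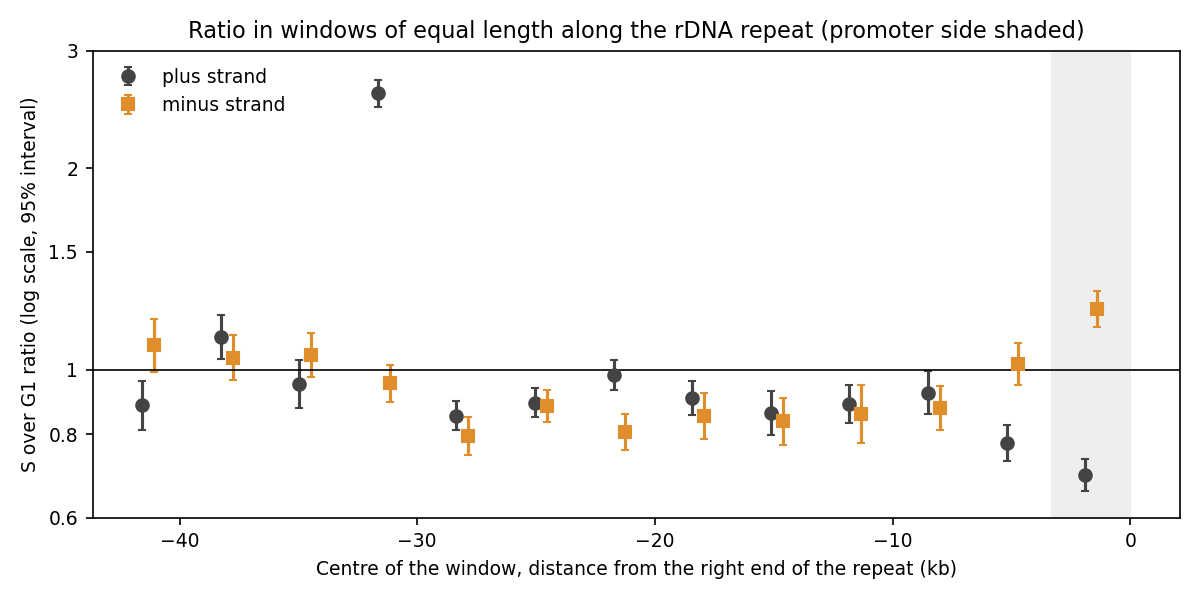
S over G1 ratio of plus-strand (circles) and minus-strand (squares) reads in 13 windows of equal length along the repeat, on a log scale, plotted at the window's distance in kb from the right end of the repeat; bars are 95% intervals for counting error. The shaded promoter side has the lowest plus-strand ratio, 0.695, and the highest minus-strand ratio, 1.23, and the plus-strand point at 2.59 is the window from 12247 to 15552.

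Read density on the promoter side lay within the range of the other windows in both libraries and on both strands. This stretch makes up 7.30% of the length of the repeat and held 8.60% (8.34 to 8.87) of its S-phase reads and 9.47% (9.24 to 9.71) of its G1 reads. On the plus strand its share of rDNA reads was 7.00% (6.69 to 7.31) against 10.2% (9.92 to 10.6). On the minus strand the order was the reverse, 11.04% (10.6 to 11.5) and 8.40% (8.05 to 8.75). In plus-strand density the promoter side stood above 10 of the 12 windows in G1 phase and above 7 in S phase. In minus-strand density it stood above 8 in G1 phase and above 11 in S phase.

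The highest plus-strand peak of the stretch, in both libraries, began at a turn from minus-strand to plus-strand ends at position 43401, 1906 bp from the right end. It was found as the left edge of the 100 bp bin with the most plus-strand reads, so the height of that bin is a description. In the 60 bp to the left of the turn, 43341 to 43400, the plus strand held 0 reads in either library. In the 60 bp to its right it held 442 and 386 reads. The minus strand showed the opposite order, with 126 and 108 reads to the left and 14 and 10 to the right. The strands thus changed places next to the turn, in the order described above for a double-ended break. The 60 bp were set after the values were seen and stop short of further reads on the other strand. How clean the change looks is therefore a description. Over 100 bp to the left there were 31 and 48 plus-strand and 196 and 165 minus-strand reads. Over 100 bp to the right there were 447 and 386 plus-strand and 60 and 76 minus-strand reads. The plus-strand side held more reads, and minus-strand reads returned at 43481 to 43500, with 46 and 55. Whether plus-strand reads could align to the 60 bp left of the turn, and whether the ends came from a double-ended break, was not tested.

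The leading positions on either side of the turn lay close together. On the plus strand the highest position was 43405 in S phase, with 89 reads there against 43 in G1 phase. In G1 phase the highest plus-strand position near the turn was 43406, with 57 reads against 61 in S phase. On the minus strand the highest position in the last 100 bp before the turn was 43400 in S phase, with 25 reads against 21, and 43396 in G1 phase, with 28 reads against 3 in S phase. The plus-strand positions were therefore shared by the libraries, and the minus-strand positions were shared in part.

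**Figure D2:**
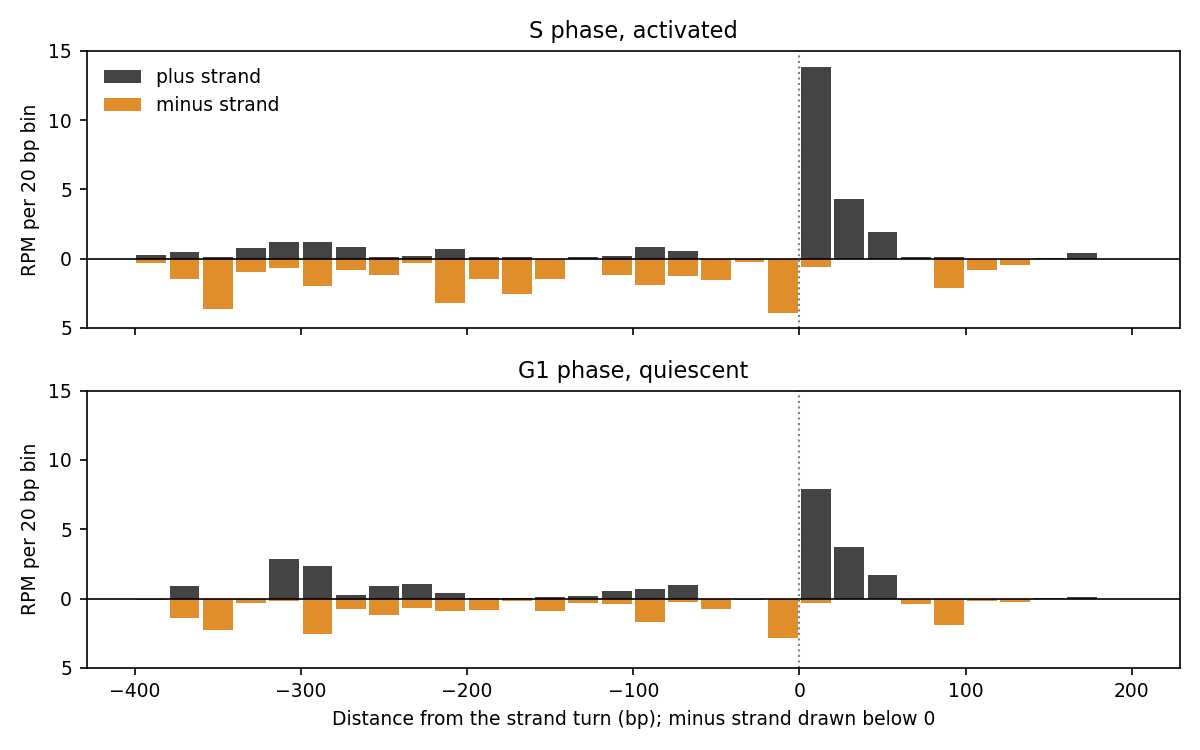
Reads per 20 bp bin in RPM, plus strand above 0 and minus strand below 0, from 400 bp left to 200 bp right of the strand turn (dotted line), in the S-phase library (upper panel) and the G1 library (lower panel). In both libraries plus-strand reads are missing in the last 60 bp before the turn and are highest in the first 20 bp after it, at 13.8 RPM in S phase and 7.88 RPM in G1 phase.

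Both sides of the turn carried more reads in S phase, against the trend of the plus strand around them. The 20 bp bin at 43401 to 43420 led the plus strand of the promoter side in both libraries, where 304 against 228 reads gave 1.75 (1.47 to 2.09), below the size of 2 that was set for a call. These reads lay on 10 and 12 positions, which gave 0.810 (0.314 to 2.05) by covered positions. The 100 bp to the right of the turn held 447 and 386 plus-strand reads, a ratio of 1.52 (1.33 to 1.75). The plus-strand excess was smaller when stacked reads were limited. With reads per position capped at 20 and 26, the 99th percentile of covered rDNA positions, the ratio was 1.09 (0.922 to 1.29), and by covered positions it was 1.26 (0.714 to 2.24). The minus strand in the 400 bp to the left of the turn, 43001 to 43400, held 664 and 550 reads, a ratio of 1.59 (1.42 to 1.78). There the ratio was 1.56 (1.39 to 1.75) with the cap and 1.45 (1.07 to 1.96) by covered positions, of which S phase had 113 and G1 phase 76. Plus-strand reads in the same 400 bp were fewer in S phase, where 171 against 328 reads gave 0.686 (0.567 to 0.827).

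The same order of strands was looked for at the other edges of 100 bp bins along the repeat, as the lower of the minus-strand share in the 400 bp to the left and the plus-strand share in the 100 bp to the right. At the turn these shares were 79.5% and 88.2% for S phase, and 62.6% and 83.5% for G1 phase. Of 425 edges with at least 20 reads on each side in the S-phase library, 0 had a higher lower share than the turn. In the G1 library 11 of 431 edges did. By this measure the turn ranked first in S phase but not in G1 phase. It had been picked for its plus-strand reads, and the 400 bp and 100 bp were set after its values were seen. Its rank is therefore a description and no independent evidence. In G1 phase the edge at 43901 on the same stretch was sharper, at 73.4% and 83.3%. That edge, which follows a thinly covered stretch, was the only one of the 419 edges tested in both libraries that had both shares at 70% or more in each.

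Away from the turn the plus strand was lower in S phase to nearly the same degree on both sides. Before the 500 bp around the turn, from 42001 to 43000, the plus strand held 528 and 1204 reads, a ratio of 0.577 (0.520 to 0.639). Behind it, from 43501 to 45306, the plus strand held 719 and 1610 reads, a ratio of 0.587 (0.537 to 0.642). The minus strand before the turn stood at 1.04 (0.915 to 1.18), from segments on opposite sides of 1, and was higher behind it, at 1.15 (1.04 to 1.27). The promoter side without these 500 bp, a setting chosen after the data were seen, had a plus-strand ratio of 0.583 (0.545 to 0.623), a minus-strand ratio of 1.11 (1.02 to 1.20) and a difference in plus-strand share of −15.4 points (−17.9 to −13.0). Without the turn region the plus-strand ratio thus lay further from 1 and the minus-strand ratio nearer to 1.

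**Figure D3:**
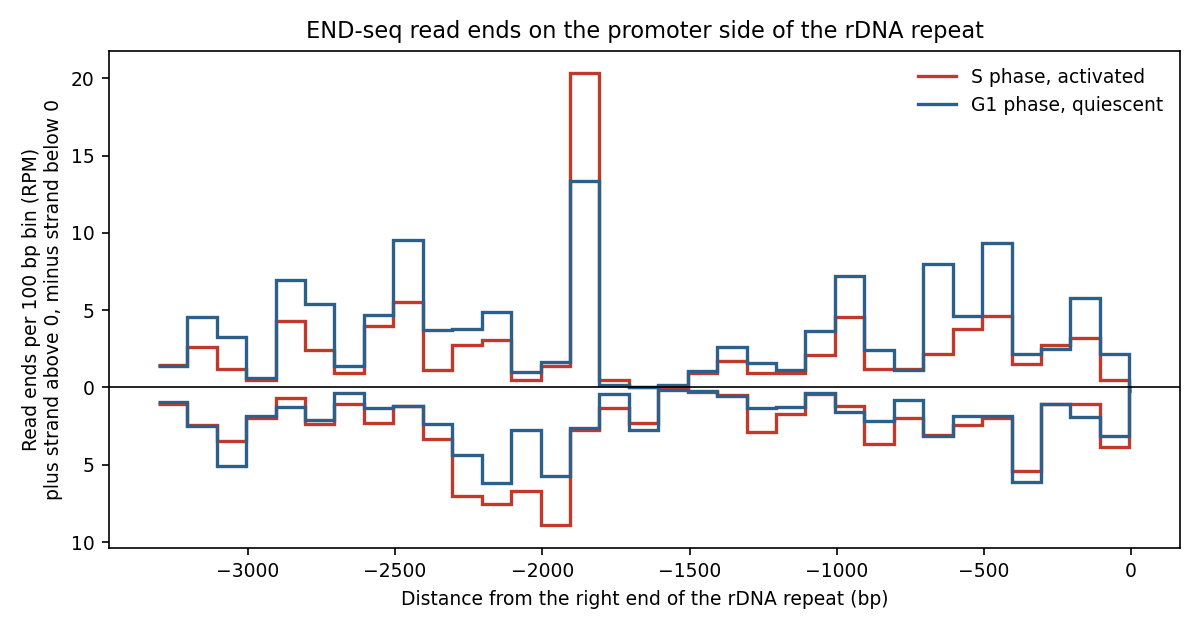
Reads per 100 bp bin in RPM along the promoter side, plus strand above 0 and minus strand below 0, against the distance in bp from the right end of the repeat, for S phase (red) and G1 phase (blue). The plus-strand line of S phase lies below that of G1 phase in 25 of the 29 bins where either library had 20 or more reads. This count was not made for the rest of the repeat. At the peak next to the turn the plus-strand line of S phase lies above, and the minus-strand lines separate most to the left of the turn.

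In 5 of the 7 segments of 500 bp the plus-strand interval lay below 1. At 44501 to 45000, 294 against 731 reads gave 0.529 (0.460 to 0.606). The others were 42501 to 43000 with 308 against 718 reads (0.564), 42001 to 42500 with 220 against 486 (0.595) and 44001 to 44500 with 214 against 463 (0.608). The last 306 bp, 45001 to 45306, which border on the next unit, held 142 and 303 plus-strand reads, a ratio of 0.616 (0.501 to 0.755). The intervals of these 5 segments overlapped. By covered positions the ratio was 0.805 (0.581 to 1.11) at 44501, 0.864 (0.632 to 1.18) at 42501, 0.781 (0.548 to 1.11) at 42001 and 1.09 (0.702 to 1.69) at 45001, with intervals that held 1. The segment that holds the turn, 43001 to 43500, stood at 1.14 (1.02 to 1.27) with 618 and 714 reads, and fell to 0.897 with stacked reads capped. The segment at 43501 to 44000 held only 69 and 113 plus-strand reads, and its ratio of 0.803 had an interval that held 1 (0.586 to 1.09).

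On the minus strand the direction by reads differed between segments. The ratio was highest at 43001 to 43500, where 724 against 626 reads gave 1.52 (1.37 to 1.70). At 44001 to 44500 there were 218 and 194 reads, a ratio of 1.48 (1.21 to 1.80), and at 42501 to 43000 there were 224 and 212 reads, a ratio of 1.39 (1.15 to 1.69). These 3 segments did not differ beyond their intervals. At 42001 to 42500 the minus strand was lower in S phase, where 211 against 338 reads gave 0.821 (0.688 to 0.978). The segments at 43501 to 44000 (97 against 120 reads, 1.06), 44501 to 45000 (328 against 398, 1.08) and 45001 to 45306 (135 against 179, 0.992) had intervals that held 1. For the first of these this rested on position 43623, without which the ratio was 1.62 (1.15 to 2.29). A cap on stacked reads gave 1.42 (1.05 to 1.91) there. By covered positions the ratio was 0.815 (0.572 to 1.16) at 42001, 1.28 (0.864 to 1.92) at 42501 and 1.37 (0.916 to 2.06) at 44001. These intervals held 1, while that of the segment at 43001, at 1.40 (1.05 to 1.86), did not.

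In each of the 7 segments a smaller share of S-phase reads lay on the plus strand. The difference was widest at 44001 to 44500, with 49.5% (44.7 to 54.4) against 70.5% (66.8 to 73.9). At 42501 to 43000 the shares were 57.9% and 77.2%, a difference of −19.3 points (−24.4 to −14.2), and at 44501 to 45000 they were 47.3% and 64.7%. The share difference of the segment at 43501 to 44000, −6.93 points, had an interval that held 0 (−17.0 to 3.34). In bins of 100 bp, 31 of 34 had at least 20 reads in each library, and the share was lower in S phase in 26 of them and higher in 4, with a median difference of −12.2 points and a range from −35.5 to 4.62. By reads the share was thus lower in most bins, but many of these 26 differences had intervals that held 0. The same count was not made for the rest of the repeat, so it describes this stretch and does not set it apart.

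**Figure D4:**
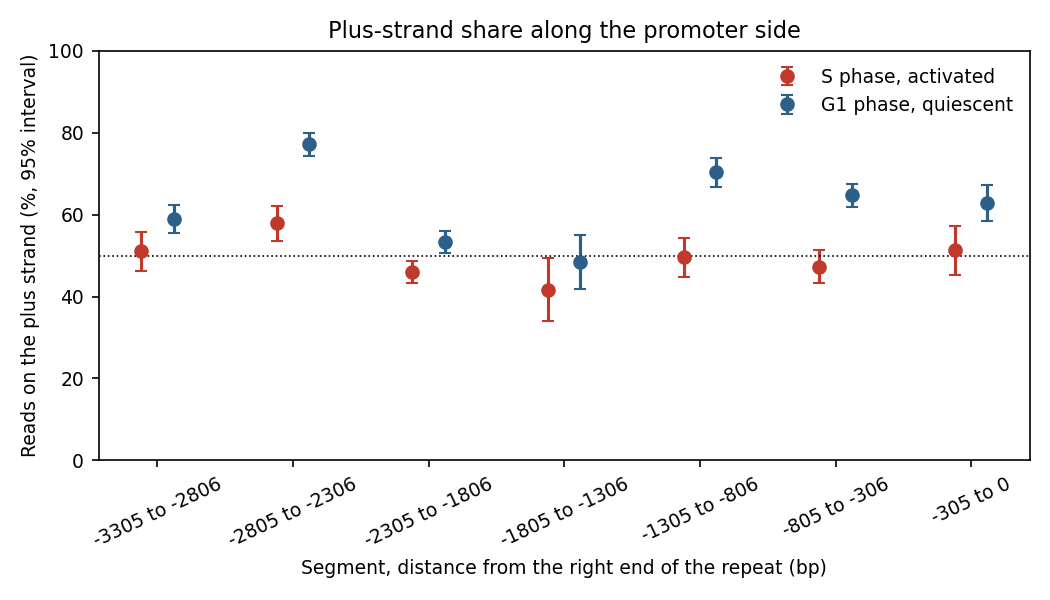
Share of reads on the plus strand in percent for 7 segments of the promoter side, labelled by distance in bp from the right end of the repeat, in S phase (red) and G1 phase (blue); bars are exact 95% intervals for counting error and the dotted line marks 50%. The S-phase value lies below the G1 value in each segment, and the intervals overlap in the first and the fourth segment from the left.

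In bins of 20 bp the promoter side had 332 members, 166 on each strand, of which 108 held at least 20 reads in a library. A bin was called higher from a ratio of 2 upward and lower from 0.5 downward. A bin can reach 20 reads through 1 library alone, so these counts are read only against the same counts over the repeat. Of the remaining 224 bins, 56 held no read in either library. On the plus strand 60 bins were tested, and 27 were lower and 2 higher in S phase. Over the whole repeat 24.2% of tested plus-strand bins were lower and 10.5% higher, and outside the promoter side 21.96% and 11.3%. The 45.0% of plus-strand bins that were lower is thus above the background of the repeat. On the minus strand 48 bins were tested, of which 12, or 25.0%, were higher and 5 lower, against 10.5% higher and 25.4% lower over the whole repeat. Over both strands 14 bins were higher and 32 lower, or 12.96% and 29.6%, near the background of 10.5% and 24.7%. The distinction of the promoter side thus lay in the strands and not in the number of changed bins. The ratios of single bins depend on stacked reads. Counted by covered positions, 25 of the named bins gave a ratio, 23 of them with an interval that held 1, and 17 moved by over 1.5 times. The exceptions were the plus-strand bin at 42181, at 0.108, and the minus-strand bin at 43221, at 11.7.

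Plus-strand bins lower in S phase were found along most of the stretch. They made up 5 of 11 tested bins in the segment at 42001, 7 of 14 at 42501 and 3 of 9 at 43001. Further right they were 0 of 2 at 43501, 2 of 6 at 44001, 6 of 10 at 44501 and 4 of 8 at 45001. The highest bins of the G1 library after the turn were among them. They were named for their high G1 reads, which by itself favours a low ratio, so their direction is a description. The bin at 44881 to 44900 held 47 and 178 reads, a ratio of 0.347 (0.246 to 0.481), or 0.756 (0.239 to 2.28) by covered positions. The bin at 44621 to 44640 held 28 and 137 reads, a ratio of 0.269 (0.172 to 0.406), or 0.608 (0.156 to 2.11) by covered positions. It included position 44638, the highest plus-strand position of the G1 library, with 9 and 59 reads. Other leading bins were level: 43421 to 43440, next to the turn, held 95 and 108 reads (1.16), and 42881 to 42900 held 65 and 95 reads, a ratio of 0.900 (0.646 to 1.25). Position 42493, the third highest of the plus strand in G1 phase, held 39 and 51 reads.

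Among the lowest plus-strand ratios, the bin at 42921 to 42940 held 0 and 23 reads, at least 5.83-fold lower when 3 reads are taken as the floor. The bin at 43141 to 43160 held 2 and 26 reads (0.101, interval 0.0116 to 0.404), 42181 to 42200 held 3 and 34 (0.116, 0.0228 to 0.369), 45221 to 45240 held 3 and 32 (0.123, 0.0242 to 0.394) and 43161 to 43180 held 4 and 30 (0.175, 0.0449 to 0.498). The bin at 45221 to 45240 lies at the right edge, where plus-strand reads end. The plus-strand bins called higher were 42741 to 42760, where 26 against 4 reads gave 8.55 (2.97 to 33.7), and 42021 to 42040, where 21 against 11 gave 2.51 (1.16 to 5.77). Both lie before the turn and hold few reads.

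Of the 12 minus-strand bins called higher in S phase, 6 lay in the 400 bp to the left of the turn. There 16 bins were tested and 1 was called lower. Over the whole repeat 10.5% of tested minus-strand bins were higher and 25.4% lower. The 400 bp were set after the values were seen, and a bin can be tested through its S-phase reads alone. The count is therefore a description. The bin at 43221 to 43240 held 56 reads on 12 positions against 6 reads on 1 position, a ratio of 12.3 (5.30 to 34.9). The bin at 43181 to 43200 held 71 and 27 reads, a ratio of 3.46 (2.19 to 5.61), or 1.13 by covered positions, and included position 43192 with 26 and 4 reads. The bin at 43321 to 43340 held 28 and 7 reads, a ratio of 5.26 (2.25 to 14.3), on 2 positions in each library. Next to these, the strongest minus-strand bins were not called: 43381 to 43400, which ends at the turn, held 86 and 83 reads (1.36, interval 0.996 to 1.87), and 43041 to 43060 held 80 and 66 (1.59, 1.14 to 2.24) with position 43050 at 29 and 20. The bins that led the minus strand in both libraries were thus not those with the highest ratios.

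Elsewhere on the minus strand, the bin at 44041 to 44060 held 22 reads on 5 positions against 0 reads, at least 9.65-fold higher with the floor of 3 reads. The bin at 42961 to 42980 held 31 and 12 reads, a ratio of 3.40 (1.70 to 7.27). The bins lower in S phase were 45101 to 45120 with 0 and 21 reads, at least 5.32-fold lower, 44981 to 45000 with 1 and 32 reads (0.0411, interval 0.00101 to 0.246), 42241 to 42260 with 3 and 23 (0.172, 0.0330 to 0.568), 42901 to 42920 with 11 and 37 (0.391, 0.180 to 0.783) and 43161 to 43180 with 7 and 20 (0.460, 0.164 to 1.13). The interval of the last of these held 1. The highest minus-strand bin of the G1 library, 44921 to 44940, was level, where 61 against 90 reads gave 0.891 (0.633 to 1.25). Within it the libraries favoured neighbouring bases: position 44938 held 37 and 20 reads, and position 44937 held 20 and 49. The bin at 43621 to 43640 held 47 and 80 reads, a ratio of 0.773 (0.527 to 1.12), with 18 and 56 at position 43623, the highest minus-strand position of the G1 library. Its direction turned without that position, to 1.59 (0.893 to 2.85), with the cap, to 1.24, and by covered positions, to 1.36. Position 43483, the third highest there, held 13 and 40 reads.

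Ends recurred at the same bases in the libraries to a similar degree as on the rest of the repeat. On the plus strand 404 and 465 positions were covered, and 187 were shared, 46.3% of the S-phase and 40.2% of the G1 positions. On the minus strand 433 and 368 were covered and 145 shared, 33.5% and 39.4%. Outside the promoter side the shared positions were 42.2% and 40.4% on the plus strand and 37.0% and 36.3% on the minus strand. Over the 166 bins of 20 bp, reads of the libraries correlated with Pearson's r of 0.781 and Spearman's rho of 0.7998 on the plus strand, and 0.781 and 0.726 on the minus strand. Outside the promoter side r and rho were 0.513 and 0.754 on the plus strand, and 0.738 and 0.665 on the minus strand. These are descriptions over bins that share a library and the positions to which reads can align. High and low bins were thus alike in the libraries, while most covered positions were seen in 1 library only. The shared positions held 65.1% and 59.5% of the plus-strand reads, and 49.3% and 56.7% of the minus-strand reads.

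Reads were stacked on few positions. A covered position held 4.62 and 7.59 plus-strand reads on average, and 4.47 and 5.62 minus-strand reads. On the plus strand the 10 highest positions held 22.6% against 13.6% of reads, and on the minus strand 11.98% against 15.5%. Counted as covered positions, the plus-strand ratio was 0.845 (0.738 to 0.967), the minus-strand ratio 1.14 (0.993 to 1.32), with an interval that held 1, and the difference in plus-strand share −7.55 points (−12.4 to −2.68). The direction on each strand was thus the same by positions as by reads, with smaller sizes.

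Where reads can align limits what was seen. The longest stretches without a plus-strand read in either library were 43565 to 43705 (141 bp), 43707 to 43806 (100 bp) and 42274 to 42373 (100 bp), and on the minus strand 43639 to 43761 (123 bp). Most of these follow on the turn, within the segment with the fewest reads. Whether reads there could not be assigned or ends were absent was not tested. At the right edge the last plus-strand read started at 45225 and 45231, which is 81 and 75 bp before the end of the sequence, while minus-strand reads reached 45306 and 45305. Plus-strand ends in this last stretch, directly before the next unit, were thus not observed in either library. A plus-strand read continues to the right and must fit before the end of the sequence, so starts within a read length of it cannot be seen. How much of the 81 and 75 bp this limit covers was not tested. Without the last 100 bp the plus-strand ratio was 0.704 and the minus-strand ratio 1.23.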

How the data were processed

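Values were read from 4 bedGraph files, which hold a strand of a library each, per the file headers. The deposited values are unnormalized counts: whole numbers of read ends at each base. The submitters' processing notes name the build mm10 and the tools bedtools, SAMtools 1.11 and Bowtie 1.1.2. What each did, how duplicate and multiply matching reads were handled, and where the added rDNA sequence came from is not given in the sources used here. This sequence, chrR, was used in its own coordinates, counted from 1. Rn45s matched 0 entries of the RefSeq tables, so no sequence is shown.

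Reads were summed in Python 3.11.15 (pandas 2.3.3, numpy 2.4.6), scaled to the library totals (21997695 reads in S phase, 28933109 in G1 phase) and compared as ratios with exact 95% intervals for Poisson counts, conditional on their sum (scipy 1.17.1). Ratios by covered positions were scaled instead to all covered positions of the library, 7752336 in S phase and 7538681 in G1 phase. Shares carry Clopper-Pearson intervals and their differences Newcombe intervals built on these. Plots used matplotlib 3.10.9. A bin of 20 bp was tested with at least 20 reads in a library and called higher from a ratio of 2 upward and lower from 0.5 downward. A count of 0 allows 3 reads, 0.136 RPM in S phase and 0.104 RPM in G1 phase. Reads carry no molecular identifiers, and stacked reads can be copies of 1 molecule. With 1 library per group no test was run. Named items are the 3 highest bins and positions per library and strand, up to 5 highest and 5 lowest called bins per strand, and all 500 bp segments. The strand turn and its surroundings were chosen after their values were seen. The stretch and the rules were chosen with earlier results of these data known.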

Additional observations from a re-analysis of the deposited data

How the results depend on the processing

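No paired analysis was possible because each group holds 1 library. The plus-strand ratio stayed below 1 and the minus-strand ratio above 1 under all 9 alternatives run for them, from 0.583 to 0.845 and from 1.11 to 1.31, and the share difference stayed below 0 under 7, from −15.8 to −7.55 points. With each covered position counted once, the ratio of all reads was 0.977, of the plus strand 0.845 and of the minus strand 1.14, and the share difference was −7.55 points. This setting gave no bin calls, since a bin of 20 bp has at most 20 positions, and it turned the plus-strand segment at 45001 to 1.09, the plus-strand bin at 43401 to 0.810 and the minus-strand bins at 43041 and 43321 each to 0.972, and the minus-strand bin at 43621, whose interval held 1, to 1.36. With stacked reads capped, the plus-strand segment at 43001 turned to 0.897. With the start moved 500 bp to the right the minus-strand ratio was 1.31. Without the 500 bp around the strand turn, a setting added after seeing the data, the ratios were 0.760 for all reads, 0.583 for the plus strand and 1.11 for the minus strand, with 8 bins called higher. Bins called higher and lower numbered 7 and 17 with bins of 50 bp, 5 and 8 with 100 bp, 32 and 50 with at least 10 reads, 2 and 13 with at least 40, and 6 and 19 at a ratio of 3, against 14 and 32 in the report. Of 70 values of segments under 5 alternatives, 62 stayed within the reported interval, and of 129 values of named bins 114 did. Among these alternatives, scaling to the rDNA reads or to the autosome reads changed every ratio by the same small factor. Another left out only the highest position of each strand. Most of these values could therefore hardly leave their intervals, and the counts say little about stability.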

Other observations

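The spacing of ends was described by setting the covered positions of the promoter side against themselves at distances of 20 to 400 bp. On the plus strand the highest autocorrelation lay at 256 bp in S phase (r = 0.0698) and at 257 bp in G1 phase (r = 0.0823). On the minus strand it lay at 132 bp (r = 0.0801) and 102 bp (r = 0.0696). Outside the promoter side the highest values were 0.0642 and 0.0637 on the plus strand, at 20 and 25 bp. These are weak correlations in sparse counts over positions that share a library, and no regular spacing is read from them.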
